A study of Rattus norvegicus with 6 samples.

Results

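The genes described are genes of the cell cycle and of DNA replication, 51 genes chosen by name for what they do. They were chosen with earlier results of these data known, so counts of members that changed describe this list only. Of the 51 genes, 50 had a row with their gene name among the 30957 genes of the deposited table. The remaining one, Ccnb2, was not analysed here. Of the 50 members, 16 were assigned to S phase or its preparation and 34 to the time from G2 to the division of the cell. Ccna2, Foxm1, Melk and Pbk were counted among the 34 by choice. RNA-seq was performed on the spinal cord of adult female Wistar rats on day 14, with 3 sham-operated and 3 bone cancer pain (BCP) libraries. BCP rats carried living Walker 256 cells, a rat mammary carcinoma line, in the marrow of the left tibia, and sham-operated rats received the same cells after killing by heat, so both groups had the injection itself. The tissue was the lumbar enlargement on the side of the injection, without meninges, and nothing in the labels says whether a library came from 1 animal or from pooled tissue, so p-values measure the spread between these samples. A library held from 11779485 (BCP library 1) to 15004290 (sham library 3) counts on genes.

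A dividing cell passes through a fixed order of phases. In G1 the MCM helicase is loaded on origins of replication, in S phase the DNA is copied, and in mitosis the spindle separates the chromosomes before cytokinesis cuts the cell. Most genes of the program are transcribed mainly in dividing cells, the S phase genes largely under E2F factors and the mitosis genes later, under complexes that include B-Myb and FoxM1. In the adult spinal cord neurons and mature oligodendrocytes do not divide, whereas microglia, oligodendrocyte precursors and, after injury, other glial and blood-borne cells can. A bulk library holds all of these together, so that more dividing cells and more RNA per dividing cell cannot be told apart, nor can fewer cells of a type and less RNA per cell.

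The cell cycle program was higher in BCP rats in nearly all of its members. Of the 50 members, 41 rose and 2 fell (edgeR's quasi-likelihood test, Benjamini-Hochberg adjusted p under 0.05 over all genes tested), where 15.8% of all 14908 genes tested rose and 12.1% fell. With the additional threshold of more than 2-fold, 35 members were up-regulated and 0 were down-regulated, beside 6.35% and 0.107% of all genes. The median log2 fold change (log2FC) of BCP over sham was 1.55 over the members and -0.01 over all genes tested. In 42 members all 3 BCP libraries lay above all 3 sham libraries, which held for 21.7% of all genes, and in 2 members all 3 lay below, which held for 19.8%. As lists, the mitosis members had the larger changes, which is a description and was not tested. Of the 34 mitosis members 29 rose, 1 fell and 4 did not pass the test, and 27 were up-regulated more than 2-fold, with a median log2FC of 1.71 and a range of -0.24 to 3.36. Of the 16 S phase members 12 rose, 1 fell and 3 did not pass, and 8 were up-regulated more than 2-fold, with a median of 0.89 and a range of -0.34 to 2.21. The member that fell was E2f1 in S phase and Anln in mitosis. Without BCP library 2, the median of the S phase members was 0.66 and 28 members were up-regulated.

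**Figure D1:**
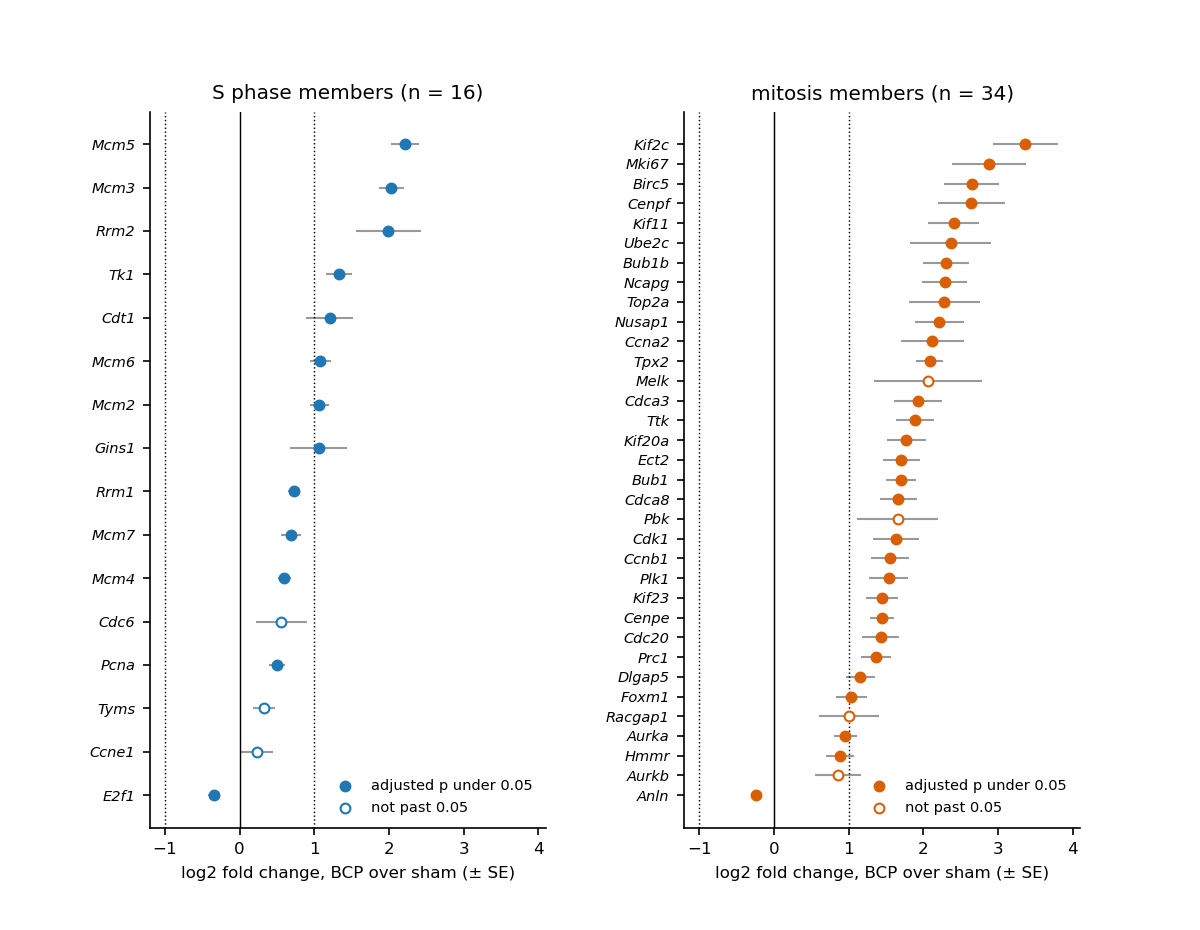
The log2 fold change of BCP over sham is plotted on the x axis for each of the 16 S phase members (left) and 34 mitosis members (right), with bars of 1 SE, filled points for an adjusted p under 0.05 and dotted lines at 2-fold. The mitosis members extend to 3.36 (Kif2c) and the S phase members to 2.21 (Mcm5), and E2f1 and Anln are the only filled points below 0.

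Promoter sequences are shown for a few members because both kinds of gene carry known short motifs in front of their start, and because Anln, which fell, can be set beside members that rose. RefSeq promoters of the GRCr8 build were matched by symbol for 39 of the 50 members, 12 S phase and 27 mitosis members, and for a gene with several starts the first one listed was used. E2f1, the other member that fell, was not among those matched. The 200 bases before the start are printed 5′ to 3′ on the strand of the gene, with capitals on 3 motifs searched on both strands. These are the CCAAT box (CCAAT, which appears as ATTGG when it lies on the other strand), the CHR element of late cell cycle genes (TTTGAA, which then appears as TTCAAA) and a core of E2F sites (the letters TTGGCGC and also the letters TTCGCGC, each with its reverse complement). Adjoining capitals can belong to overlapping motifs. The first 4 are mitosis members that rose, Mki67 (the Ki-67 antigen, chr1:199952594-199952793, minus strand), Birc5 (survivin, chr10:103571946-103572145, plus strand), Cdk1 (the kinase that starts mitosis, chr20:19265093-19265292, plus strand) and Cdc20 (an activator of the anaphase promoting complex, chr5:137255800-137255999, minus strand).
Mki67: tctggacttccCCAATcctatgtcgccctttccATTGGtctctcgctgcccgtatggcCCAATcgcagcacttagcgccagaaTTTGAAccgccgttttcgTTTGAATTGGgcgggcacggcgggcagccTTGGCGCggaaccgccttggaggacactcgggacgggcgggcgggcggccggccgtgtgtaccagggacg
Birc5: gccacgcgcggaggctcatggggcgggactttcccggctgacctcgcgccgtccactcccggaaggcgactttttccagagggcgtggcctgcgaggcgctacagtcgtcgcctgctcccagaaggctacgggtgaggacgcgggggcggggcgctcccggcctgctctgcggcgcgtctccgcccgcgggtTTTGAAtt
Cdk1: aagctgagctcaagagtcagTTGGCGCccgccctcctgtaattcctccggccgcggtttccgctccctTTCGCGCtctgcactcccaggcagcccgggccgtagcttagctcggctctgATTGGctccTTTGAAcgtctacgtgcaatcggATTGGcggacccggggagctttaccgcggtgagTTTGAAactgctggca
Cdc20: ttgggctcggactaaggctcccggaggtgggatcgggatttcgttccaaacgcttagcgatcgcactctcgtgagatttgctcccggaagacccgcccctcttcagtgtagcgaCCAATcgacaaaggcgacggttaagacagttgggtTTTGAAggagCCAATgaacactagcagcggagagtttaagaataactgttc
Next come the helicase subunits Mcm5 (chr19:13488613-13488812, plus strand) and Mcm6 (chr13:42404353-42404552, minus strand), which rose, and anillin, Anln (chr8:29197514-29197713, minus strand), which fell.
Mcm5: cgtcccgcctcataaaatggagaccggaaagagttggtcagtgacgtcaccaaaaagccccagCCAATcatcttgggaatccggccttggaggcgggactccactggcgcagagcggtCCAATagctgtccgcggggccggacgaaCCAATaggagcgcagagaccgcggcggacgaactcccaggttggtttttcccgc
Mcm6: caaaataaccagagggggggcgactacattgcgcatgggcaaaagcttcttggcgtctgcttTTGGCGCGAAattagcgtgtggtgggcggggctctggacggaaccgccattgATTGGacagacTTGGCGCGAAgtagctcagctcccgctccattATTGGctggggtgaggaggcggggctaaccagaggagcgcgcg
Anln: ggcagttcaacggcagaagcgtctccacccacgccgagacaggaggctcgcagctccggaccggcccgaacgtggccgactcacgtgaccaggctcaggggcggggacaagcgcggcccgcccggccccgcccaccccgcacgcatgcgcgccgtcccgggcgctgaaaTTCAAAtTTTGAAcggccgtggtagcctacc
The window of Mki67 held 4 CCAAT boxes, 2 CHR elements and 1 E2F core, and that of Mcm6 held 2 CCAAT boxes, no CHR element and 4 overlapping E2F cores at 2 places. The window of Birc5 held a CHR element and no CCAAT box, and so did that of Anln, with 2 CHR elements, so that this element was present in a member that fell too. The shares below use 250 bases, more than are printed. There Birc5 had 1 CCAAT box, Anln still had 0, and Mcm5, with no E2F core printed, had 2. In the 250 bases before the start, 77.8% of the 27 mitosis promoters had a CCAAT box, as did 58.3% of the 12 S phase promoters and 34.3% of all 27457 promoters of the table. A CHR element was found in 44.4% of the mitosis promoters, in 8.33% of the S phase promoters and in 16.0% of all promoters. The E2F core was found in 11.1% of the mitosis promoters, 50.0% of the S phase promoters and 3.08% of all promoters, so mitosis and S phase promoters were in the reverse order for these 2 motifs. In the 10263 promoters of genes tested, the shares were 34.8% (CCAAT box), 10.3% (CHR element) and 5.43% (E2F core). CCAAT box and CHR element stood together in 11 of the 27 mitosis promoters, in 0 of the 12 S phase promoters and in 5.76% of all. These matches describe letters in a window and are neither sites of binding nor causes.

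**Figure D2:**
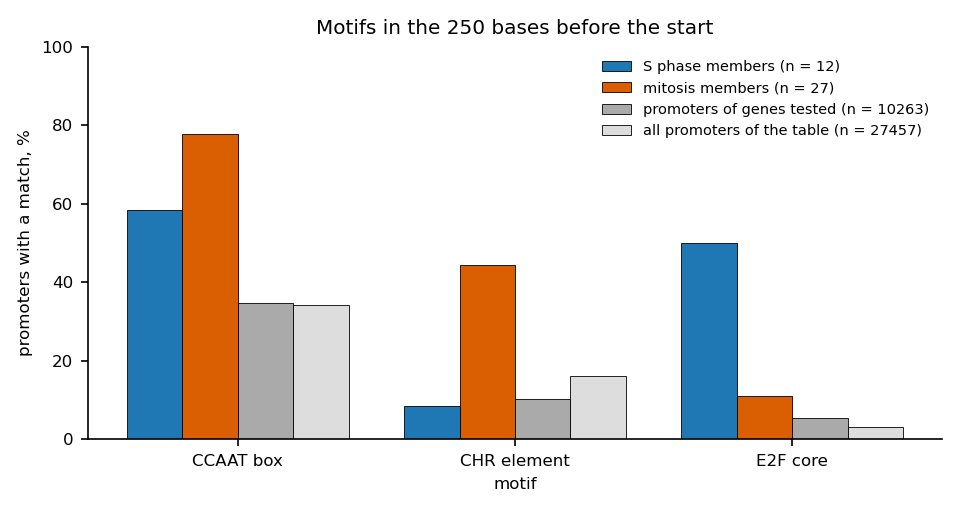
Bars give the percentage of promoters with at least 1 match in the 250 bases before the start (y axis) for the CCAAT box, the CHR element and the E2F core (x axis), in S phase members, mitosis members, genes tested and all promoters of the table. The CHR element is found in 44.4% of mitosis promoters and 8.33% of S phase promoters, and the E2F core in 11.1% and 50.0%.

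The licensing group, whose 9 members load or form the MCM helicase, had 8 members that rose, 6 of them up-regulated more than 2-fold, and a median log2FC of 1.07. Levels below are given in CPM, read counts scaled to the size of the library with TMM normalization, in the order of libraries 1, 2 and 3. Mcm5 was at 3.97, 5.099 and 2.97 CPM in the sham libraries and 14.5, 20.7 and 20.2 CPM in the BCP libraries, and Mcm3 was at 6.18, 5.17 and 4.05 and 17.5, 24.6 and 20.5. For both helicase subunits the lowest BCP library was far above the highest sham library. The log2FC of Mcm5 was 2.21 (SE 0.19, n = 3 libraries a group, adjusted p = 1.11e-07 by edgeR's quasi-likelihood test), and that of Mcm3 was 2.03 (SE 0.16, adjusted p = 1.86e-08 by the same edgeR test). The other subunits of the ring rose by less. Mcm6 went from 8.24, 9.01 and 8.78 to 15.2, 22.4 and 17.4 CPM (log2FC 1.08), and Mcm2 from 10.5, 13.1 and 8.65 to 22.8, 23.5 and 21.2 CPM (log2FC 1.07). The most abundant subunits changed by under 2-fold, Mcm7 from 15.6, 14.2 and 10.8 to 19.5, 25.1 and 20.7 CPM (log2FC 0.69) and Mcm4 from 23.8, 24.9 and 21.5 to 33.5, 38.2 and 34.5 CPM (log2FC 0.60). So the 6 subunits of 1 complex, which act in equal numbers, changed by log2 values from 0.60 to 2.21, with the libraries of the groups apart in each. In FPKM, counts scaled to gene length and library size, which allow a comparison between genes, their sham means ran from 1.04 for Mcm5 to 6.91 for Mcm4 and their BCP means from 4.91 to 10.7.

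Of the factors that load the helicase or turn it on, Cdt1 was at 3.28, 1.54 and 1.35 CPM in sham and 3.47, 6.07 and 4.47 CPM in BCP libraries. Sham library 1 nearly reached the lowest BCP library, and the log2FC was 1.21 (SE 0.31, adjusted p = 0.00853 by edgeR's quasi-likelihood test). Without sham library 2 or without BCP library 2 the adjusted p was 0.057 or 0.0512 by edgeR. Gins1, a subunit of the GINS complex that turns the helicase on, was at 0.915, 2.02 and 0.878 CPM in sham and 2.37, 3.93 and 1.67 CPM in BCP libraries, so that the groups overlapped. Its log2FC of 1.06 (SE 0.38, adjusted p = 0.0475 by edgeR) lay at the threshold, and the adjusted p was 0.156, 0.162, 0.0672 and 0.297 without sham library 1, sham library 3, BCP library 1 and BCP library 2. Cdc6, which loads the helicase together with Cdt1, did not pass the test, at 1.22, 1.33 and 0.946 CPM in sham and 1.78, 2.21 and 1.14 CPM in BCP libraries (log2FC 0.56, SE 0.34, adjusted p = 0.253 by edgeR), with BCP library 3 inside the sham range. It had the lowest FPKM of the S phase members, 0.291 in sham and 0.439 in BCP.

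Among the 5 genes of nucleotide supply and the replication clamp, 4 rose and 2 were up-regulated more than 2-fold. Rrm2, the subunit of ribonucleotide reductase that is limiting in S phase, was at 0.534, 0.419 and 0.203 CPM in sham and 1.78, 1.72 and 1.14 CPM in BCP libraries. These are few reads, from 3 to 7 counts in a sham library and from 15 to 24 in a BCP library, but the groups did not overlap (log2FC 1.99, SE 0.43, adjusted p = 0.00149 by edgeR's quasi-likelihood test). Rrm2 passed the filter on low counts only through its BCP counts, so this separation is not independent support. Its partner Rrm1, the large subunit, was far more abundant, at 39.5, 34.7 and 35.1 CPM in sham and 56.7, 64.2 and 59.4 CPM in BCP libraries, and rose by a log2FC of 0.72. Thymidine kinase, Tk1, went from 6.48, 4.4 and 3.85 to 11.2, 12.9 and 12.7 CPM (log2FC 1.33, SE 0.18), with each BCP library above every sham library. Pcna, the sliding clamp that holds the polymerase and also serves DNA repair, had the highest FPKM of all members, 18.98 ± 1.78 in sham and 27.5 ± 3.91 in BCP (SD, n = 3). Its CPM were 22.8, 24.2 and 20.1 in sham and 26.6, 33.2 and 34.6 in BCP libraries, a log2FC of 0.50 with the groups apart. Tyms, thymidylate synthase, did not pass the test at 11.5, 8.87 and 9.798 CPM in sham and 10.99, 14.3 and 12.3 CPM in BCP libraries (log2FC 0.32, SE 0.14, adjusted p = 0.103 by edgeR), with BCP library 1 within the sham range.

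Neither of the 2 regulators of entry into S phase rose. E2f1, a transcription factor that drives S phase genes (chr3:150047826-150073721), was at 40.04, 42.05 and 35.9 CPM in sham and 32.7, 30.4 and 29.8 CPM in BCP libraries. Every BCP library was below every sham library, and the gene fell, with a log2FC of -0.34 (SE 0.084, adjusted p = 0.00387 by edgeR's quasi-likelihood test). Ccne1, cyclin E1, the partner of Cdk2 at the start of S phase, was at 6.101, 6.29 and 4.05 CPM in sham and 7.61, 7.15 and 4.54 CPM in BCP libraries. The groups overlapped and no change was detectable (log2FC 0.23, SE 0.22, adjusted p = 0.48 by edgeR). Both members of this group, one lower and one with no call, stood beside licensing and nucleotide genes of which 12 of 14 rose. RGD1561517 and Actl10 overlap the span of E2f1, with 4 and 5 counts in all sham libraries together, beside 1658 of E2f1.

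The 3 members of chromosome structure all rose by more than 2-fold. Mki67, the marker of dividing cells whose product coats mitotic chromosomes, lies at chr1:207993895-208020454 in Rnor_6.0 and was at 16.6, 18.6 and 5.61 CPM in sham and 70.5, 119.5 and 109 CPM in BCP libraries. The lowest BCP library was several times above the highest sham library, and sham library 3 lay well under the other two. Its log2FC was 2.88 (SE 0.49, adjusted p = 0.0174 by edgeR's quasi-likelihood test), and its FPKM went from 1.36 ± 0.697 in sham to 10.2 ± 2.7 in BCP (SD, n = 3). Top2a, the topoisomerase that untangles chromosomes, also had its lowest levels in sham library 3 and BCP library 1, with 11.7, 12.99 and 4.53 CPM in sham and 31.2, 53.9 and 55.8 CPM in BCP libraries (log2FC 2.28, SE 0.47, adjusted p = 0.0307 by edgeR). The calls of both by edgeR's quasi-likelihood test rest on the spread within groups. With all libraries, DESeq2 gave an adjusted p of 1.44e-06 for Mki67 and 7.26e-05 for Top2a. Leaving out sham library 1, sham library 2, BCP library 2 or BCP library 3 gave adjusted p-values of 0.0593, 0.0513, 0.0671 and 0.0675 for Mki67 and of 0.0868, 0.0747, 0.105 and 0.101 for Top2a by edgeR, and the lowest log2FC in these fits was 2.73 for Mki67 and 2.15 for Top2a. With the replicate number as a block the adjusted p by edgeR was 0.1 for Mki67 and 0.143 for Top2a. Ncapg, a subunit of the condensin that compacts chromosomes, was nearly the same in the 3 BCP libraries, with 5.24, 5.22 and 5.301 CPM, against 1.45, 1.33 and 0.473 CPM in sham libraries (log2FC 2.29, SE 0.30, adjusted p = 5.95e-06 by edgeR).

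**Figure D3:**
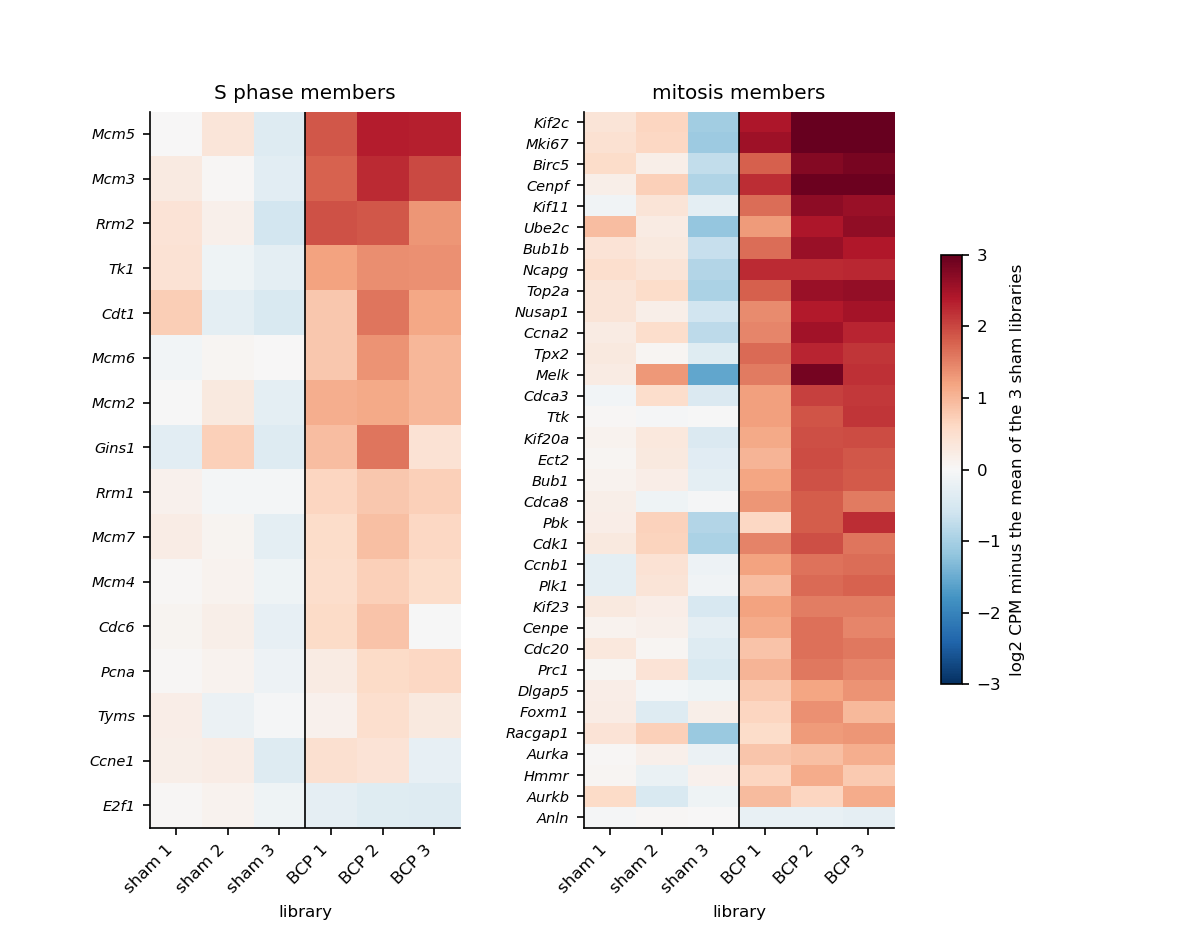
Each row is a member and each column a library, and the color gives log2 CPM minus the mean of the 3 sham libraries, on a scale that saturates at 3. Rows are ordered by log2FC. The BCP columns are higher in nearly all rows, sham 3 is the lowest sham library in 39 of the 50 rows and BCP 1 the lowest BCP library in 41.

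All 11 members of the mitotic spindle, motors and their partners, rose, and 10 of them were up-regulated more than 2-fold. Kif2c, a kinesin that takes microtubules apart at the centromere (chr5:136027934-136053210), had the largest log2FC of the 50 members. Its counts were 8, 11 and 2 in sham rats and 35, 90 and 81 in BCP rats, that is, 0.6101, 0.768 and 0.135 and 2.96, 6.43 and 6.13 CPM. No library of a group came near the other group (log2FC 3.36, SE 0.44, adjusted p = 4.78e-05 by edgeR's quasi-likelihood test), and the low sham counts limit the precision of the fold. On its sham counts alone Kif2c would not have passed the filter on low counts, so its test depended on the BCP counts. Cenpf, a kinetochore protein, was at 4.27, 6.29 and 1.96 CPM in sham and 18.01, 30.01 and 29.7 CPM in BCP libraries (log2FC 2.64, SE 0.45, adjusted p = 0.0153 by edgeR). Sham library 3 was again the lowest, and without sham library 1, BCP library 2 or BCP library 3 the adjusted p of Cenpf by edgeR was 0.0658, 0.0585 or 0.0593. Kif11, the motor that pushes the spindle poles apart, went from 3.13, 4.47 and 2.703 to 11.1, 22.4 and 20.98 CPM (log2FC 2.41). Tpx2, which starts microtubules near chromosomes, went from 5.64, 4.75 and 3.51 to 15.2, 22.9 and 20.6 CPM (log2FC 2.09, SE 0.18, adjusted p = 2.26e-07 by edgeR) and had the smallest adjusted p of the mitosis members. For the spindle protein Nusap1 the levels were 2.52, 2.17 and 1.22 CPM in sham and 5.33, 10.5 and 11.3 CPM in BCP libraries (log2FC 2.22).

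The motors of the midzone, where the spindle overlaps before the cell divides, rose as well. Kif20a was at 2.21, 2.58 and 1.49 CPM in sham and 4.65, 8.29 and 8.41 CPM in BCP libraries (log2FC 1.77). Kif23 was at 3.58, 3.35 and 2.03 and 6.93, 8.65 and 8.71 CPM (log2FC 1.45), and Prc1, which bundles the microtubules there, at 5.11, 6.57 and 3.58 and 10.2, 15.2 and 13.8 CPM (log2FC 1.37). BCP library 1 was the lowest BCP library in all 3, and the groups did not overlap. Cenpe, the kinesin of the kinetochore, was at 6.79, 7.05 and 5.203 CPM in sham and 13.8, 20.2 and 17.5 CPM in BCP libraries (log2FC 1.44). Dlgap5, a spindle protein, was at 4.42, 3.63 and 3.45 and 6.68, 8.86 and 9.92 CPM (log2FC 1.15), and Hmmr, a hyaluronan receptor that also binds the spindle, was at 4.42, 3.702 and 4.66 and 6.76, 9.29 and 7.42 CPM. Hmmr was the single member of the spindle group under 2-fold, with a log2FC of 0.88.

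The 7 members of the spindle checkpoint, the anaphase promoting complex and the chromosomal passenger complex all rose by more than 2-fold. Birc5, survivin, a subunit of the passenger complex, was at 1.22, 0.908 and 0.405 CPM in sham and 3.04, 6.15 and 6.51 CPM in BCP libraries (log2FC 2.65, SE 0.37, adjusted p = 4.25e-05 by edgeR's quasi-likelihood test). Its partner Cdca8, borealin, was at 1.75, 1.397 and 1.49 CPM in sham and 4.06, 5.79 and 4.85 CPM in BCP libraries, a smaller change (log2FC 1.67). In both the lowest BCP library exceeded the highest sham library. The checkpoint kinase Bub1 went from 4.42, 4.75 and 3.31 to 9.55, 15.8 and 15.2 CPM (log2FC 1.71), and Bub1b, which holds back the anaphase promoting complex, from 2.06, 1.89 and 0.878 to 5.16, 9.79 and 8.63 CPM (log2FC 2.31). Cdc20, which activates that complex, went from 3.28, 2.72 and 1.96 to 4.82, 8.43 and 8.03 CPM (log2FC 1.43). Genes that hold the complex back and genes that turn it on were thus higher together. Ube2c, the ubiquitin-conjugating enzyme of the complex, had the lowest sham FPKM of the members (0.116), and 0.763, 0.419 and 0.0676 CPM in sham against 1.01, 2.43 and 2.88 CPM in BCP libraries (log2FC 2.37, SE 0.54, adjusted p = 0.0042 by edgeR). Sham library 3 held 1 read of it and BCP library 1 lay close to sham library 1. Like Kif2c, Ube2c and Birc5 would not have passed the filter on low counts on their sham counts alone. Cdca3, a cofactor in the entry into mitosis, was at 0.991, 1.61 and 0.743 CPM in sham and 2.71, 4.86 and 5.15 CPM in BCP libraries (log2FC 1.93).

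Among the 10 cyclins, mitotic kinases and their regulators, 7 rose and 3 did not pass the test. Cdk1 was at 1.98, 2.58 and 0.743 CPM in sham and 4.74, 6.503 and 5.15 CPM in BCP libraries (log2FC 1.64, SE 0.31, adjusted p = 0.000831 by edgeR's quasi-likelihood test), and its partner Ccnb1, cyclin B1, at 1.45, 2.51 and 1.62 and 4.397, 5.93 and 6.13 CPM (log2FC 1.55). Their log2FC differed by less than the SE of either, and neither showed an overlap between the groups. Ccna2, cyclin A2, was at 3.05, 3.77 and 1.42 CPM in sham and 7.27, 15.2 and 13.1 CPM in BCP libraries (log2FC 2.12, SE 0.42, adjusted p = 0.0119 by edgeR), and its adjusted p by edgeR was 0.06 without sham library 1 and 0.0505 without BCP library 3. The polo kinase Plk1 was at 1.91, 3.14 and 2.16 and 4.57, 8.004 and 8.33 CPM (log2FC 1.54). Ttk, the checkpoint kinase also known as Mps1, was the tightest of the group in sham rats, with 1.83, 1.75 and 1.76 CPM, and reached 4.397, 6.93 and 8.41 CPM in BCP rats (log2FC 1.89). Foxm1, the factor that drives late cell cycle genes, was at 5.57, 3.56 and 5.34 CPM in sham and 7.53, 12.5 and 9.47 CPM in BCP libraries (log2FC 1.04). Aurka, the kinase of the spindle poles, rose from 6.33, 6.84 and 5.47 to 11.1, 11.7 and 13.4 CPM, a log2FC of 0.96 that stayed under 2-fold.

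Aurkb, the kinase of the passenger complex, did not pass the test although its partners Birc5 and Cdca8 did. It was at 20.3, 9.92 and 12.5 CPM in sham and 26.4, 21.2 and 29.5 CPM in BCP libraries, so the groups did not overlap, but sham library 1 nearly reached BCP library 2 (log2FC 0.86, SE 0.31, adjusted p = 0.116 by edgeR's quasi-likelihood test). Without sham library 1 its adjusted p by edgeR was 2.52e-05, and with the replicate number as a block it was 0.00372. Without sham library 3 it was 0.279 by edgeR. Aurkb passed in 4 of 13 refits, which used another test, filter or scaling, the block, or 1 library fewer. Melk and Pbk, kinases of dividing and progenitor cells, had large and uncertain values. Melk was at 0.839, 1.89 and 0.135 CPM in sham and 2.28, 5.93 and 3.63 CPM in BCP libraries (log2FC 2.06, SE 0.73, adjusted p = 0.0978 by edgeR), with 2 counts in sham library 3. Pbk was at 1.601, 2.31 and 0.676 and 2.198, 5.22 and 6.89 CPM (log2FC 1.66, SE 0.54, adjusted p = 0.0643 by edgeR), and BCP library 1 fell below sham library 2. The adjusted p of Melk by edgeR dropped to 0.00984 without sham library 2, 0.0271 without sham library 3 and 0.0047 with the replicate block. It was 0.254 without sham library 1, and Melk passed in 3 of 12 refits. For Pbk it dropped to 0.0457 and 0.000371 by edgeR without sham library 2 and BCP library 1. It was 0.185 by edgeR without BCP library 2, and Pbk passed in 4 of 13 refits.

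Cytokinesis divided its 3 members. Ect2, the exchange factor that turns on RhoA at the cleavage furrow, was at 2.59, 3.07 and 1.96 CPM in sham and 5.24, 10.1 and 9.47 CPM in BCP libraries and rose (log2FC 1.71, SE 0.25, adjusted p = 6.14e-05 by edgeR's quasi-likelihood test). Racgap1, its partner at the midzone, was at 1.45, 1.82 and 0.405 CPM in sham and 1.61, 2.79 and 2.88 CPM in BCP libraries, with BCP library 1 inside the sham range (log2FC 1.00, SE 0.40, adjusted p = 0.0784 by edgeR). Without sham library 2 or BCP library 1 its adjusted p by edgeR was 0.041 or 0.0346. Without sham library 3 it was 0.257 by edgeR, and Racgap1 passed in 3 of 12 refits. Anln, anillin, the scaffold of the contractile ring (chr8:23337621-23390773), fell. Its levels were 62.1, 65.1 and 64.9 CPM in sham and 54.5, 55.1 and 53.5 CPM in BCP libraries, and both groups were tight and apart (log2FC -0.24, SE 0.063, adjusted p = 0.0071 by edgeR). Anln was also the most abundant mitosis member in sham rats per length, at 18.2 FPKM, where the median of the 34 mitosis members was 0.883 FPKM, and 21 of them were under 1 FPKM. Anillin is known to be expressed in oligodendrocytes, where it belongs to the septins' scaffold of myelin. Markers of mature oligodendrocytes fell in 6 of 6 genes, beside 12.1% of all genes tested. Their summed levels were 38300 to 43530 CPM in sham and 27410 to 30590 CPM in BCP libraries. The part of this in the fall of Anln was not tested.

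Summed over the members, the S phase genes were at 200.6, 197.2 and 168.9 CPM in sham rats and at 278.4, 330.4 and 296.3 CPM in BCP rats. The sums of the mitosis genes were 198.0, 200.2 and 148.5 CPM in sham and 375.1, 561.6 and 545.2 CPM in BCP libraries. In sham rats both sums, over 16 S phase and 34 mitosis genes, were therefore nearly equal. In BCP rats the mitosis sum was the larger in each library. The mean of BCP over the mean of sham was 1.60 for S phase and 2.71 for mitosis. The ratio of the mitosis sum to the S phase sum was 0.987, 1.02 and 0.879 in the order of the sham libraries and 1.35, 1.70 and 1.84 in that of the BCP libraries, without overlap of the groups. All members together took 0.0313% to 0.0393% of the counts of a sham library and 0.0656% to 0.0907% of those of a BCP library. A few abundant members weigh heavily in these sums, Rrm1, E2f1, Pcna and Mcm4 in S phase and Anln and Mki67 in mitosis. Per gene, the mean log2 CPM of mitosis minus S phase members was -1.12, -1 and -1.45 in the sham libraries. In the BCP libraries it was -0.74, -0.36 and -0.07, so by this measure the mitosis members were lower in every library. Per length, the median member went from 2.85 to 6.37 FPKM in S phase and from 0.883 to 2.97 FPKM in mitosis, where 21 members were under 1 FPKM in sham rats and 2 in BCP rats.

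**Figure D4:**
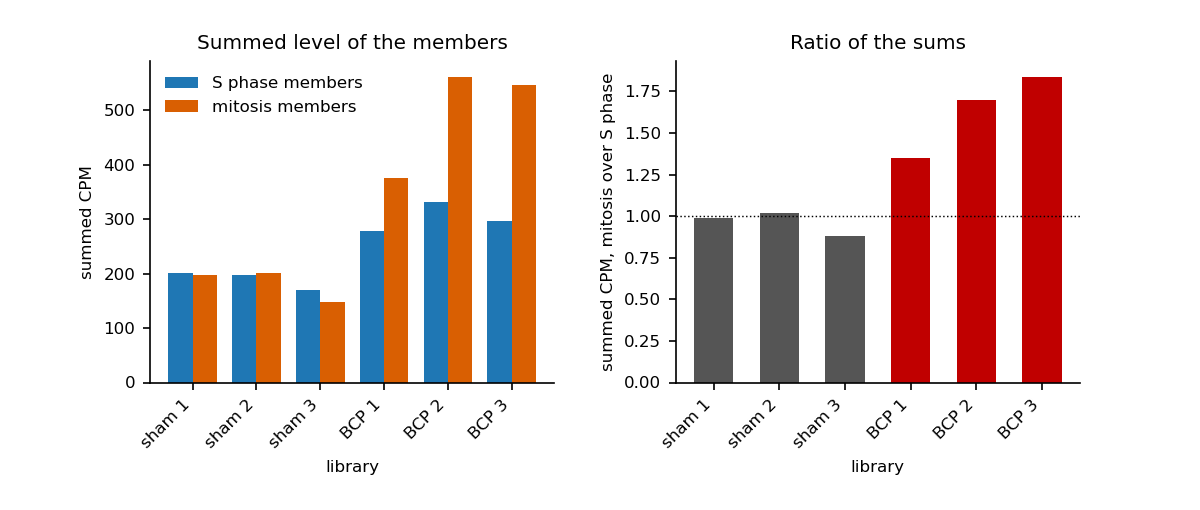
Bars on the left give the CPM summed over the 16 S phase and 34 mitosis members in each library, and bars on the right the ratio of the mitosis sum to the S phase sum, with a dotted line at 1. The ratio is 0.879 to 1.02 in the sham libraries and 1.35 to 1.84 in the BCP libraries.

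The spread among the sham libraries was wide in these genes. The coefficient of variation (CV) of CPM over the 3 sham libraries had a median of 26.8% over the members, 19.3% for S phase and 30.0% for mitosis. Over the 11207 genes tested within the same range of sham levels the median was 9.39%. These genes were not matched in level, with a median sham level of 13.4 CPM against 3.63 CPM for the members. Counting alone would give a median CV of 10.2% for the S phase members, 16.6% for the mitosis members and 7.29% for the genes in the same range. The observed CV was more than 2 times that of counting in 15 of the 50 members and below it in 7. The members with the widest sham range were Melk, with a ratio of 13.95 between the highest and the lowest library, Ube2c with 11.3, Kif2c with 5.69 and Racgap1 with 4.48, all of them low in counts. Mki67 and Top2a were not low in counts, with 83 to 266 and 67 to 186 reads in a sham library, and had CVs of 51.4% and 46.8%, where counting alone would give 7.27% and 8.60%. Anln and Ttk were the steadiest, with a CV of 2.58% each.

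The spread had a common direction. Sham library 3 was the lowest of the sham libraries in 39 of the 50 members, in 13 of 16 S phase and 26 of 34 mitosis members, beside 35.8% of all genes tested. BCP library 1 was the lowest of the BCP libraries in 41 members, in 10 of 16 and 31 of 34, beside 35.9% of all genes. Scaling by library size alone or by upper quartiles gave 39 for sham library 3 and 42 or 41 for BCP library 1. Over all genes, pairs of libraries within a group differed by 3.09 to 5.19 times the variance that counting gives, so no libraries were alike within sampling noise. Without sham library 3, 33 members were up-regulated by more than 2-fold, and without BCP library 1 the number was 37.

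**Figure D5:**
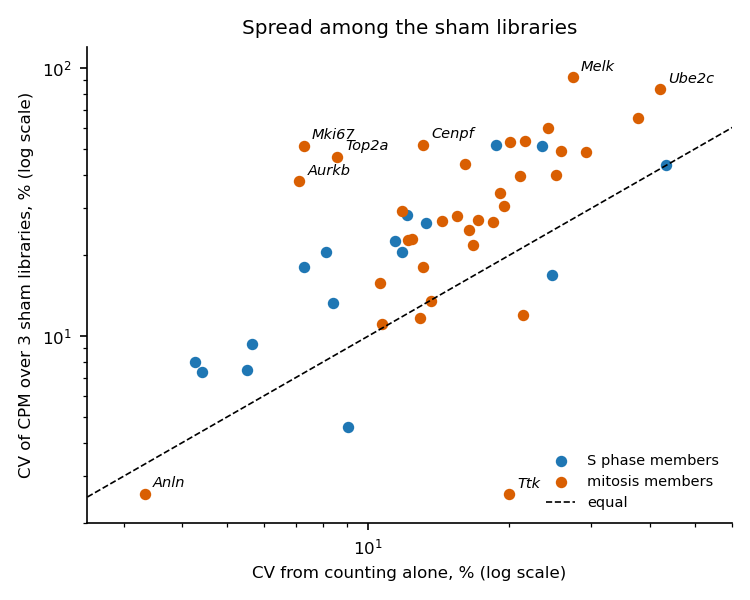
The coefficient of variation of CPM over the 3 sham libraries (y axis, %, log scale) is plotted against the value that counting alone would give (x axis, %, log scale) for each S phase and mitosis member, with a dashed line where both are equal. Mki67 and Top2a, at 51.4% and 46.8%, stand far above the line, and Ttk and Anln, at 2.58%, below it.

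Other genes of the pathway were taken from lists made by function, also with earlier results of these data known. Of 43 other S phase genes tested, 21 rose, 0 fell and 11 were up-regulated more than 2-fold, with a median log2FC of 0.43. Among those were Ticrr and Orc1, with log2FC of 3.15 and 3.06, E2f8 (2.35), Mcm10 (2.15), Asf1b (2.12), Uhrf1 (1.79), Pole2 (1.72), E2f2 (1.34), Cdc45 (1.07) and Tipin (1.00). They include factors that fire origins (Ticrr, Cdc45, Mcm10), a subunit of the origin recognition complex (Orc1) and the E2F factors E2f2 and E2f8, which rose whereas E2f1 fell. Orc1 had 2, 2 and 3 counts in sham and 12, 27 and 18 in BCP libraries (SE 0.51). It passed the filter only through its BCP counts, and its fold has low precision. The sliding clamp loader subunits Rfc2 to Rfc5 and the flap endonuclease Fen1, named here after their values were seen, did not pass the test, with log2FC from -0.06 to 0.43. Of 51 other mitosis genes tested, 40 rose, 1 fell and 31 were up-regulated more than 2-fold, with a median of 1.32. Among the up-regulated were separase, Espl1 (2.55), the kinesin Kif14 (2.39), the centromeric histone Cenpa (2.35), the kinetochore subunit Ndc80 (2.14) and B-Myb, Mybl2 (2.13). The gene that fell was Cit, citron kinase, which acts in cytokinesis like Anln and is abundant in neurons, with 2953, 3501 and 3372 counts in sham and 2507, 2687 and 2478 in BCP libraries (log2FC -0.24).

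Genes that act before S phase were also examined. Of the 8 G1 cyclins, kinases and Myc genes, 5 rose and 1 was up-regulated more than 2-fold. That gene was Myc, a transcription factor of growth, with 57, 43 and 43 counts in sham and 175, 245 and 198 in BCP libraries (log2FC 2.21, SE 0.17). Cyclin D1, Ccnd1, had a log2FC of 0.50, Ccnd2 of 0.49, Cdk4 of 0.39 and Cdk6 of 0.85, all of them with an adjusted p under the threshold. Of 15 cell cycle inhibitors and repressors tested, 5 rose and 1 fell, with a median log2FC of 0.23. Rbl1, p107, a pocket protein that restrains E2F, was up-regulated (log2FC 1.11), Cdkn1c, p57, fell (-0.52), and p21, Cdkn1a, did not pass the test (0.19, adjusted p = 0.247 by edgeR's quasi-likelihood test).

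Marker genes of some other cell types moved with the groups. Of all genes tested, 15.8% rose and 12.1% fell. The markers that define spinal cord were present, and their sums did not overlap between the groups. The 8 neuron genes summed to 6706 to 6988 CPM in sham and 5896 to 6502 CPM in BCP libraries, and 3 of them fell and 0 rose. The 6 astrocyte genes summed to 3535 to 3871 CPM in sham and 5326 to 7093 CPM in BCP libraries, although 3 of them fell and 1 rose. That 1 was Gfap, the intermediate filament of astrocytes, at 2163 to 2469 CPM in sham and 3729 to 4440 CPM in BCP libraries, and Aqp4, their water channel, stood at 2415 CPM in BCP library 1 and at 353.6 to 379.0 CPM in the other 5 libraries. Of 12 microglia markers 8 rose, with summed levels of 379.3 to 463.8 CPM in sham and 934.5 to 1130.0 CPM in BCP libraries. Of 9 T cell markers with a row, 2 were not tested and the other 7 rose. These 7 summed to 6.08 to 6.64 CPM in sham and 49.0 to 56.1 CPM in BCP libraries. Their median sham level was 0.0691 CPM. Genes at that level in sham pass the filter only through their BCP counts, so that all 7 rose is not a separate result. Cd3d and Cd3e, chains of the T cell receptor complex, were at 0 counts and at 0, 0 and 1 counts in sham libraries and at 11, 16 and 15 counts and 56, 104 and 111 counts in BCP libraries. Red blood cell genes rose in 4 of 4, from 30.0 to 34.5 CPM in sham to 73.0 to 92.6 CPM in BCP libraries. In the sums of these 3 lists sham library 3 and BCP library 1 were the lowest of their groups, as they were in most of the members. This was not particular to these lists. The sum of the endothelial markers was also lowest in sham library 3 (318.3 CPM) and BCP library 1 (315.4 CPM) of their groups. Sham library 3 was the lowest sham library in the neuron, astrocyte and oligodendrocyte precursor sums too. Gene by gene, sham library 3 was the lowest sham library for 9 of the 12 microglia, 1 of the 7 T cell and 3 of the 4 red blood cell genes, and BCP library 1 the lowest BCP library for 7, 6 and 3 of them. Oligodendrocyte precursor markers rose in 0 of 7 genes and fell in 3, with summed levels of 769.4 to 801.7 CPM in sham and 697.7 to 763.9 CPM in BCP libraries, and Pdgfra, their growth factor receptor, had a log2FC of 0.10. Endothelial markers rose in 0 of 6 genes, fibroblast markers in 0 of 4, monocyte and macrophage markers in 1 of 5 and ependymal markers in 1 of 4. Of 7 markers of epithelial tumors 2 were tested, of which Erbb3, a receptor that glia also carry, fell (135.4 to 136.2 CPM in sham and 102.2 to 109.0 CPM in BCP libraries) and Krt18 had 4 to 17 counts in a sham and 15 to 22 in a BCP library (log2FC 0.82, SE 0.42, adjusted p = 0.164 by edgeR). The other 5, among them Epcam and Krt19, had at most 13 counts in a library. The part of each of these in the levels of the members was not tested.

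Reads that members share with other transcripts were also examined. The span of Ccna2 overlaps that of Exosc9 and the span of Kif20a that of Cdc23, both of them higher in counts, so the values of Ccna2 and Kif20a are less certain where the counting could not separate them. Of the lncRNA transcripts, 43 overlapped 25 members in position and 16 of these were tested. By edgeR's quasi-likelihood test over all 12157 lncRNAs tested, 0 of the 16 passed the threshold and 4 had an unadjusted p under 0.05. These 4 lay on Mki67 (NONRATT003289.2, NONRATT003292.2 and NONRATT003293.2, log2FC 2.98, 4.90 and 1.78) and on Top2a (NONRATT005985.2, log2FC 1.97). They were higher in BCP like the 2 genes, and whether they share reads with them was not tested. Of all lncRNAs tested 1.57% rose and 0.395% fell, and 13.3% had an unadjusted p under 0.05. Within 10 kb of a member 44 lncRNAs were tested, of which 0 passed and 11 had an unadjusted p under 0.05.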

How the data were processed

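RNA-seq libraries of total RNA depleted of ribosomal RNA were made with a strand-specific kit from the ipsilateral lumbar enlargement of BCP and sham-operated rats, with 3 libraries a group, and groups and replicate numbers were taken from the labels. The authors trimmed reads with Seqtk, aligned them to the Rnor_6.0 genome with HISAT2 2.0.4 and quantified transcripts with StringTie 1.3.0. They deposited unnormalized counts per gene and per lncRNA transcript. The deposited FPKM values, which divide by gene length and library size, were used only to compare levels between genes. The program that made the counts and its use of strand are not given in the sources used here.

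Counts of all 30957 genes were fitted with edgeR 4.0.16 in R 4.3.3 (TMM normalization, filter by expression, robust quasi-likelihood test on the group alone, Benjamini-Hochberg adjustment over 14908 genes tested). "Rose" and "fell" mean an adjusted p-value under 0.05, and "up-regulated" adds a fold change over 2. The filter left out 5737 genes that had counts, and all 50 members passed it. Members with few sham reads, such as Kif2c, Rrm2, Ube2c and Birc5, passed it only with their BCP counts. For these, a rise is less of a separate result. The lncRNA counts were fitted separately. Library totals are given with the results, and a count of 1 to 3 gives little precision. The code was tested on simulated counts, and DESeq2 1.42.0 was an alternative test. Plots used matplotlib 3.10.9 under Python 3.11.15. Promoters came from RefSeq on GRCr8, another build than that of the counts, and were matched by symbol only. Comparing libraries with the same number did not show that the numbers pair the samples.

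The members and all gene lists were chosen with earlier results of these data known. Values in each library are given for the members that passed the test, and for those that did not because they are few. Of other cell cycle genes, those past both thresholds and Cdkn1a and Ccnd1 could be named, and the other names among them (Cit, Cdkn1c, Ccnd2, Cdk4, Cdk6) were chosen after their values were seen, as were the 5 of the many up-regulated mitosis genes. Not every gene that this selects is reported here. Results were recomputed with DESeq2, a likelihood ratio test, other filters and normalizations, a replicate block and each library left out.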

Additional observations from a re-analysis of the deposited data

How the results depend on the processing

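Of the 43 members past the adjusted p-value, 37 passed in every alternative that gave them a value and 6 (Mki67, Top2a, Cenpf, Ccna2, Gins1 and Cdt1) did not in at least 1. Besides leaving out libraries, these were the block for Mki67 and Top2a and DESeq2 for Gins1 (adjusted p = 0.0766). Of the 7 members not past it, 5 passed in at least 1 alternative, Aurkb (adjusted p = 0.0422) and Pbk (0.000921) with DESeq2 among them. No member changed direction in the alternatives run. The number of members up-regulated more than 2-fold was 35 with DESeq2, upper-quartile normalization, library size alone and no filter on low counts, 36 with the likelihood ratio test and 30 with at least 10 counts in every library, which tested 43 members, and 28 to 37 with 1 library left out. The median log2FC of the S phase members was 0.66 without BCP library 2 and 0.66 to 0.95 over the libraries left out in turn, and that of the mitosis members 1.56 to 1.97. The cause of these differences was not tested.

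With the replicate number as a block, 34 members were up-regulated, against 35 without it, and 43 members passed the adjusted p-value in each fit. Of these, 41 passed in both, Mki67 (adjusted p = 0.1) and Top2a (0.143) passed only without the block, and Aurkb (0.00372) and Melk (0.0047) only with it. The numbers were not taken to pair the samples, because the deviations of same-numbered libraries correlated by only -0.105, 0.0439 and -0.0353. Members with under 10 counts in a library, such as Kif2c, Ube2c and Melk, have folds of low precision.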

Other observations

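Beyond the named members and lists, other genes that the deposited annotation assigns to related processes were counted. These terms were chosen after the data had been seen, and members and listed genes were left out of them. Of 158 other genes of DNA replication tested, 36 rose (22.8%) and 8 fell, and of 150 other genes of chromosome segregation 39 rose (26.0%) and 3 fell. Of all genes tested, 15.8% rose and 12.1% fell. In DNA repair, 47 of 269 genes rose (17.5%). In cytokinesis, 18 of 80 genes rose and 17 fell, and in mitotic spindle organization 10 of 45 rose and 7 fell. Other terms were counted the same way. In regulation of cell proliferation 261 of 983 genes rose (26.6%) and 119 fell, and in the apoptotic process 291 of 1170 rose (24.9%) and 159 fell. The median log2FC of these terms lay between -0.02 for cytokinesis and 0.09 for chromosome segregation.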
